A study of Homo sapiens with 12 samples.

Results

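The interaction of PTPN21 and vincristine (VCR) is the part of the PTPN21 response that changed when the drug was present. For each gene it was taken as the effect of PTPN21 overexpression under VCR minus its effect under DMSO. It equals the effect of VCR in PTPN21 cells minus its effect in control (NC) cells. Genes were included when their mean FPKM (fragments per kilobase of gene scaled to library size) over all 12 libraries was at least 1, which kept 11591 of the 60671 genes in the deposited table. The included gene nearest to this limit was PPP1R16B, with a mean FPKM of 1.00007, and the nearest excluded gene was SNRPEP2, with 0.999986.

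The 12 RNA libraries came from cells labelled as the human T cell leukemia line Jurkat, with 3 libraries in each of 4 groups. NC cells carried a lentiviral GFP vector according to the study's methods, although the labels call their genotype wild type, and PTPN21 cells carried FLAG-tagged PTPN21 driven by the SFFV promoter. Cells of both kinds received the solvent DMSO (NC+DMSO and PTPN21+DMSO) or VCR (NC+VCR and PTPN21+VCR) over 48 h. The labels give no VCR dose and do not say whether replicates came from separate cultures, so p-values measure only the spread between these libraries.

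PTPN21 is a cytosolic protein tyrosine phosphatase that carries a FERM domain, a module that links proteins to membranes and the cytoskeleton. VCR is a vinca alkaloid that binds tubulin, blocks the assembly of microtubules and holds dividing cells in mitosis. The comparison asks which transcripts responded to PTPN21 in one way without the drug and in another way with it.

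The labelled cell type was checked first, and the data went against it. Of 12 T cell line markers, 1 had a mean FPKM of at least 1. LCK, the kinase of the T cell receptor, CD247, a signalling chain of that receptor, CD5 and CD28 were listed at 0 in all 12 libraries. CD3E, another receptor chain, did not exceed an FPKM of 0.146 in any library. CD3D was the exception, with 61.8 to 140 FPKM. In contrast, 7 of 9 erythroid markers had a mean FPKM of at least 1. HBG2, a fetal hemoglobin chain, ranged from 560 to 2985 FPKM, and HBA1, an alpha hemoglobin chain, from 49.4 to 190, although both have a near-identical copy that can share their reads. GATA1, an erythroid transcription factor looked up after the other values were seen, ranged from 13.5 to 106 FPKM. HBB, the adult beta chain, and SLC4A1, a membrane protein of red cells, had a mean FPKM under 1. Since every library showed this pattern, no result could be given without such libraries, and all results below belong to the libraries labelled Jurkat.

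**Figure D1:**
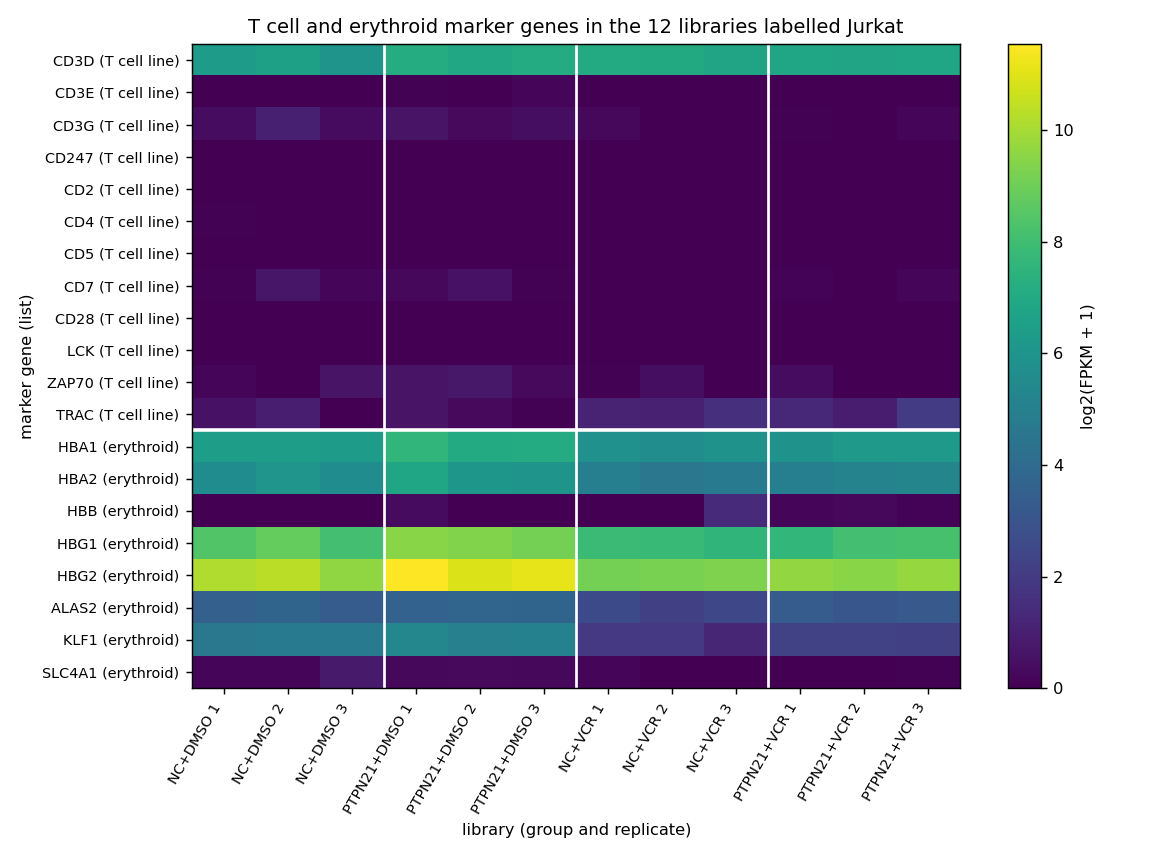
Heat map of log2(FPKM + 1) for the 12 T cell line markers (upper rows) and 8 of the 9 erythroid markers (lower rows) in the 12 libraries (columns, with white lines between groups). CD3D is the one T cell marker with a high level, while HBG2 runs from 560 to 2985 FPKM over the 12 libraries.

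The erythroid markers also differed between groups. Their summed FPKM was 1241 to 1957 in NC+DMSO, 2873 to 4062 in PTPN21+DMSO, 893 to 924 in NC+VCR and 1109.6 to 1277 in PTPN21+VCR. HBG2 rose with PTPN21 in DMSO, by 1.16 on the log2 scale (limma adjusted p = 0.00875), and its difference in VCR was 0.41 (limma adjusted p = 0.282). None of the 7 erythroid markers tested passed for the interaction, where HBG2 had -0.75 (limma adjusted p = 0.256). The summed FPKM of the T cell list, nearly all of it CD3D, was 62.7 to 96.4 in NC+DMSO, 117 to 142 in PTPN21+DMSO, 109 to 133 in NC+VCR and 108 to 113 in PTPN21+VCR, and CD3D had an interaction of -0.88 (limma adjusted p = 0.128). The part of these shifts in the results below was not tested. In bulk RNA, fewer cells of a type and less RNA per cell cannot be told apart.

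Depth was estimated from the steps in which FPKM times length falls in single-exon genes. In megareads, the best step corresponded to 28.8 to 32.5 in NC+DMSO, 44.7 to 47.6 in PTPN21+DMSO, 33.4 to 35.7 in NC+VCR and 40.8 to 44.3 in PTPN21+VCR. The search ran from 25 to 50 megareads in each library. Between 37.7% and 47.7% of low values lay near a whole step, against 20% by chance. The method cannot separate a step from a multiple of it. The depths therefore compare between libraries only if the multiple was the same in all. On these estimates no NC library was as deep as any PTPN21 library. If that holds, depth cannot be told apart from the construct.

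PTPN21 itself was present as labelled in every library. Its FPKM was 0.0767, 0.0212 and 0.0934 in NC+DMSO and 7.93, 10.5 and 8.02 in PTPN21+DMSO. It was 0.569, 0.160 and 0.372 in NC+VCR and 6.53, 6.34 and 4.34 in PTPN21+VCR. No NC library reached any PTPN21 library. All PTPN21+VCR libraries were below all PTPN21+DMSO libraries. The interaction for PTPN21 was -0.90 (95% interval -1.57 to -0.23, limma unadjusted p = 0.0122) and did not pass after adjustment over all genes (limma adjusted p = 0.240).

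All tests used log2(FPKM + 1), on which low genes appear to change less than they do. One limma model of the 4 group means with an intensity trend was fitted, with Benjamini-Hochberg adjustment over the 11591 genes and a threshold of 0.05. The interaction of all genes had a median of 0.17, and 95% of the genes lay between -0.94 and 1.23. Under median ratio scaling the median was -0.0106, so small values near 0 depend on the scaling.

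For 15 genes the PTPN21 effect differed between VCR and DMSO, which is 0.129% of the genes tested. In 3 genes (0.0259%) the effect was more positive under VCR, namely IER2, FBXW7 and ERGIC2. In 12 genes (0.104%) it was more negative under VCR, namely MIR6724-1, MIR6724-2, MIR6724-3, MIR6724-4, a Y RNA gene, UBALD2, COX4I1, NGRN, RPL22, COA6, SLC2A1 and HSP90AA1. The 4 MIR6724 copies cannot be told apart with certainty by their reads. They are counted singly in these and later counts but are not separate findings. An unadjusted p under 0.05 was reached by 1624 genes (14.0%), of which 1133 were more positive and 491 more negative. Of all genes, 63.4% had an interaction above 0. This share was 49.1% under median ratio scaling and 51.1% with quantile normalization, so the excess of positive values depends on the scaling. The count of genes past the threshold depended on single libraries. It was 7 without NC+DMSO replicate 1, 30 without NC+DMSO replicate 2 and 23 without NC+DMSO replicate 3. It was 9 without PTPN21+DMSO replicate 3, and 8, 9 and 9 without PTPN21+VCR replicates 1, 2 and 3. With the replicate number as a block, 8 genes passed.

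The 4 MIR6724 copies, IER2 and the Y RNA gene passed in every alternative setting that tested them. The other 9 genes kept their direction in all 26 alternatives but lost the call in some, and each lost it in at least 4 of the 12 fits that left out 1 library.

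The PTPN21 effect had opposite signs in DMSO and VCR in 13 of the 15 genes, while this held for 41.5% of all genes tested. A large interaction favours opposite signs, so this count describes the shape of the genes and is no separate result. COX4I1 had a positive effect in both conditions that was larger in DMSO. HSP90AA1 had negative effects of -0.01 in DMSO and -0.74 in VCR. Taken on its own, the PTPN21 effect in DMSO passed for 12 of the 15 genes (6.34% of all genes) and that in VCR for 10 (1.82% of all genes). Both effects passed for 7 of the 15, the 4 MIR6724 copies among them, and for 55 of the 11591 genes tested. In the other genes with opposite signs, at least 1 of the 2 effects did not pass. Effects of VCR, where given, passed for 36.2% of all genes in NC and for 28.5% in PTPN21 cells. The rule of the comparison used these same libraries, so nothing is read from the counts. The groups compared did not overlap in FPKM in 13 genes in DMSO and in 14 in VCR, against 33.4% and 22.5% of all genes.

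**Figure D2:**
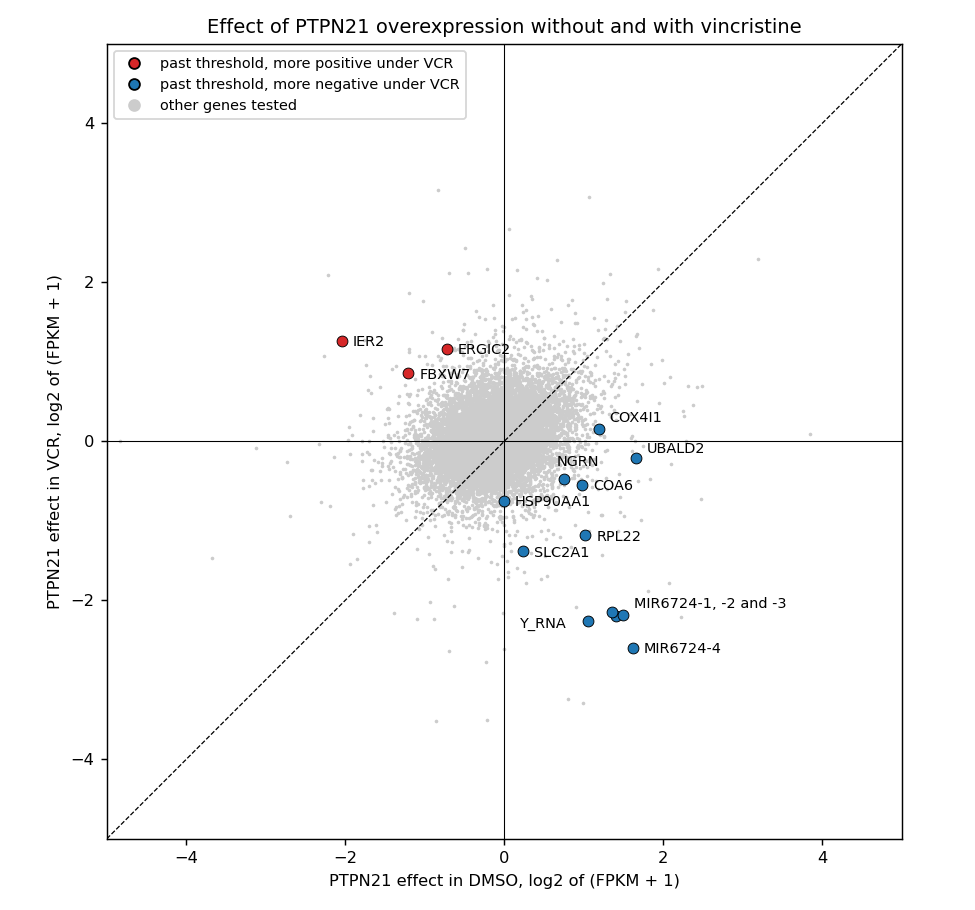
PTPN21 effect in DMSO (x axis) and in VCR (y axis), both as differences in log2(FPKM + 1), for the 11591 genes tested; red and blue points are the 15 genes past the interaction threshold and the dashed line marks equal effects. The 3 red genes lie at the upper left (lower with PTPN21 in DMSO, higher in VCR), and 10 of the 12 blue genes lie at the lower right.

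MIR6724 is a microRNA gene annotated in 4 near-identical copies on the short arm of chromosome 21, within the ribosomal RNA gene repeats. MicroRNAs guide silencing complexes to target mRNAs mainly through the seed, bases 2 to 8 of the mature strand. The RefSeq sequences (GRCh38.p14) of the mature microRNA and of the hairpin are shown because the 4 largest called interactions are these copies. Capitals mark the seed in the mature strand and the mature strand in the hairpin. The hairpins of MIR6724-2 (chr21:8249505-8249596, plus strand) and MIR6724-4 (chr21:8432530-8432621, plus strand) are identical over 92 bases.
hsa-miR-6724-5p: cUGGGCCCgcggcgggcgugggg
MIR6724-4 hairpin: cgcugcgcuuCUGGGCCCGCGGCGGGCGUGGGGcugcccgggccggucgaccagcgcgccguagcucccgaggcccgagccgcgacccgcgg

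The hairpin is 83.7% G and C. Reads from the copies cannot be assigned to one of them with certainty, so the 4 values are not separate findings. FPKM over the hairpin does not tell the mature microRNA from a longer transcript of the repeats. Which of them gave the reads was not tested. MIR6724-1 (chr21:8205315-8205406) and MIR6724-3 (chr21:8388362-8388453) lie on the same strand in GENCODE release 29.

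MIR6724-4 was listed at 0 in all 3 NC+DMSO libraries. Its FPKM was 2.60, 1.79 and 1.91 in PTPN21+DMSO, 6.72, 8.16 and 6.97 in NC+VCR and 0.803, 0.221 and 0.150 in PTPN21+VCR. The 3 NC+VCR libraries were the highest, and the 4 groups did not overlap. MIR6724-4 rose with PTPN21 in DMSO and fell with PTPN21 in VCR, and the interaction was -4.22 (standard error 0.313, 95% interval -4.90 to -3.54, limma adjusted p = 0.000128). With a group at 0 this size depends on the pseudocount and was -8.58 with a pseudocount of 0.1, so it is not a fold change. The other copies had the same order of groups, with interactions of -3.61 for MIR6724-2, -3.68 for MIR6724-1 and -3.50 for MIR6724-3 (limma adjusted p = 0.000709, 0.00149 and 0.00149).

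The number of reads behind these values was small if a step is 1 read. FPKM times length times the estimated depth gave 22.1 to 25.1 reads for MIR6724-4 in NC+VCR, 7.4 to 11.0 in PTPN21+DMSO and 0.6 to 3.0 in PTPN21+VCR. When the 4 copies were summed to 1 feature, an alternative chosen after seeing the data, 9 genes passed. MIR3648-1, another microRNA gene of the same repeats, had a mean FPKM under 1 and was not tested. Its FPKM was 0.0744, 0.126 and 0.0795 in NC+DMSO, 1.21, 0.593 and 0.756 in PTPN21+DMSO, 2.29, 0.691 and 1.28 in NC+VCR and 0.304, 0 and 0.472 in PTPN21+VCR. The 5 genes for 5.8S ribosomal RNA had interactions of -0.21 to -0.13, none of which passed.

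Y RNAs are short noncoding RNAs bound by the protein Ro60. The gene called the Y RNA gene here (ENSG00000200502, chr9:37160137-37160237 in GRCh38, plus strand, 101 bases) lies inside the gene ZCCHC7 on the same strand. It is annotated only by the family name Y_RNA and the type misc_RNA, and whether Ro60 binds its RNA was not tested. Its FPKM was 0, 0 and 0.652 in NC+DMSO, 1.89, 0.831 and 1.81 in PTPN21+DMSO, 5.06, 4.17 and 4.18 in NC+VCR and 0.364, 0.0659 and 0.0251 in PTPN21+VCR. The NC+VCR libraries were the highest and the PTPN21+DMSO libraries came next, while NC+DMSO and PTPN21+VCR overlapped. The interaction was -3.31 (standard error 0.376, limma adjusted p = 0.00245). If a step is 1 read, it rested on 14.1 to 18.3 reads in NC+VCR and 0.1 to 1.5 in PTPN21+VCR. The host gene ZCCHC7 had an interaction of -0.12 (limma adjusted p = 0.708). Among protein partners of Y RNAs, a list chosen after seeing the data, RO60 had 0.45 and SSB, which encodes the La protein, had -0.32 (limma adjusted p = 0.534 and 0.268).

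Of the 10 protein-coding genes that passed, 3 were lower with PTPN21 in DMSO and higher with it in VCR. IER2 is an immediate early gene, one of a class switched on rapidly by growth factors and stress. FBXW7 encodes the subunit by which an SCF ubiquitin ligase recognizes substrates such as cyclin E and MYC. ERGIC2 encodes a protein of the compartment between the endoplasmic reticulum and the Golgi.

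The FPKM of IER2 was 15.6, 21.3 and 23.6 in NC+DMSO and 2.66, 6.16 and 3.97 in PTPN21+DMSO. It was 5.38, 3.16 and 4.61 in NC+VCR and 12.5, 12.2 and 10.7 in PTPN21+VCR. The lowest NC+DMSO library was above every other library, and the PTPN21+VCR libraries were above both the PTPN21+DMSO and the NC+VCR libraries. IER2 fell with PTPN21 in DMSO (-2.04, limma adjusted p = 0.00350) and rose with PTPN21 in VCR (1.27, limma adjusted p = 0.0328). VCR lowered it in NC cells (-1.98, limma adjusted p = 0.000187) and raised it in PTPN21 cells (1.33, limma adjusted p = 0.00269). The interaction was 3.31 (standard error 0.365, 95% interval 2.51 to 4.10, limma adjusted p = 0.00215). It ranged from 3.07 to 3.56 when 1 library was left out, with limma adjusted p from 0.00150 to 0.0127. The antisense gene AC011446.2, which overlaps IER2, had an FPKM of 15.0 in NC+DMSO replicate 3 and at most 0.711 in the other libraries, and whether counting used the strand is not given in the sources used here.

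FBXW7 had 17.4, 14.2 and 23.1 FPKM in NC+DMSO and 7.64, 7.92 and 6.10 in PTPN21+DMSO. It had 3.55, 4.37 and 5.25 in NC+VCR and 9.87, 7.35 and 9.05 in PTPN21+VCR. Groups did not overlap in either condition. FBXW7 fell with PTPN21 in DMSO (-1.21, limma adjusted p = 0.0124), and its difference in VCR was 0.86 and did not pass (limma adjusted p = 0.0616). VCR lowered it in NC cells (-1.82, limma adjusted p = 8.29e-05) and gave 0.25 in PTPN21 cells (limma adjusted p = 0.417). The interaction was 2.07 (standard error 0.299, limma adjusted p = 0.0218), passing in 8 of 12 fits that left out 1 library.

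ERGIC2 had 15.6, 11.8 and 17.0 FPKM in NC+DMSO, 6.73, 11.7 and 7.79 in PTPN21+DMSO, 6.69, 6.41 and 5.32 in NC+VCR and 15.8, 15.8 and 13.3 in PTPN21+VCR. NC and PTPN21 libraries did not overlap in either condition, although 11.8 and 11.7 in DMSO were close. ERGIC2 rose with PTPN21 in VCR (1.16, limma adjusted p = 0.0205), while the difference in DMSO was -0.72 (limma adjusted p = 0.0610). The interaction was 1.88 (standard error 0.296, limma adjusted p = 0.0367), but it passed in 2 of 12 fits that left out 1 library.

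The 250 bases upstream of the start of these 3 genes are shown because they are the only called genes with a more positive effect under VCR. They come from RefSeq (GRCh38.p14), and for FBXW7 the outermost of 4 listed starts was used. Capitals mark TGACG or its reverse complement CGTCA, the core of the cAMP response element, a motif that was chosen after seeing the sequences.
IER2 (chr19:13150161-13150410, plus strand): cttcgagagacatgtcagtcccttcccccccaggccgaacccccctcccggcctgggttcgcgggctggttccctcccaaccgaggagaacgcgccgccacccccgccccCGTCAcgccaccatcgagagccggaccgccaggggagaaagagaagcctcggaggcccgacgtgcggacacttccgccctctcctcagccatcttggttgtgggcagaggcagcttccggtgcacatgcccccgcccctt
FBXW7 (chr4:152536093-152536342, minus strand): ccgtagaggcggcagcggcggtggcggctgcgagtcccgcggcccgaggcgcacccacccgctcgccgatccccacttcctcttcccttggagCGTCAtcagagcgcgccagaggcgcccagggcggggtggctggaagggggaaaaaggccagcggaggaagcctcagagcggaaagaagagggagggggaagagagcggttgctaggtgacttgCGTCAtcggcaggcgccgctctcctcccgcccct
ERGIC2 (chr12:29381173-29381422, minus strand): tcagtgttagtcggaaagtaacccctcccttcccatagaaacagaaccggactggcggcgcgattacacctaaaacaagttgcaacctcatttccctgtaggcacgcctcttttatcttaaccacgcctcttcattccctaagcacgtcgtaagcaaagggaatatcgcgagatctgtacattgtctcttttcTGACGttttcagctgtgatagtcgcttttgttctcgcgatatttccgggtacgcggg

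On both strands, the core occurred 1 time in IER2, 2 times in FBXW7 and 1 time in ERGIC2. It was absent from the same window of the other 7 protein-coding genes that passed and present in 21.2% of 35116 promoters. The GC box GGGCGG, whose matches can share at most 1 base with the core, was found in 8 of the 10 genes and in 42.6% of all promoters. Other motifs were searched too. CCAAT was found in 4 of the 10 genes (32.0% of all promoters), CCGGAAG in 2 (8.52%) and TATAAA in 1 (10.7%). CACGTG and GAANNTTC, with N for any base, were found in none of the 10 (6.34% and 5.78% of all promoters). A match is a description of the letters only.

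The genes with a more negative effect under VCR included 4 described together here, a grouping made after their values were seen. COX4I1 encodes a subunit of cytochrome c oxidase, the last enzyme of the respiratory chain, COA6 encodes an assembly factor of that enzyme, NGRN encodes a mitochondrial protein, and SLC2A1 encodes the glucose transporter GLUT1.

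COX4I1 had 221, 264 and 285 FPKM in NC+DMSO, 642, 545 and 568 in PTPN21+DMSO, 605, 629 and 588 in NC+VCR and 639, 694 and 691 in PTPN21+VCR. Only the NC+DMSO libraries were low. COX4I1 rose with PTPN21 in DMSO (1.19, limma adjusted p = 0.000647), and the difference in VCR was 0.15 (limma adjusted p = 0.518). The interaction was -1.04 (standard error 0.153, limma adjusted p = 0.0231), passing in 4 of 12 fits that left out 1 library.

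COA6 had 318, 320 and 198 FPKM in NC+DMSO, 647, 493 and 485 in PTPN21+DMSO, 230, 229 and 228 in NC+VCR and 142, 169 and 160 in PTPN21+VCR. PTPN21 libraries were the highest without the drug and the lowest with it. The interaction was -1.52 (standard error 0.249, limma adjusted p = 0.0429), passing in 2 of 12 fits that left out 1 library.

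NGRN had the same order, with 122, 127 and 122 FPKM in NC+DMSO, 203, 209 and 214 in PTPN21+DMSO, 72.8, 73.3 and 99.8 in NC+VCR and 54.4, 55.5 and 65.2 in PTPN21+VCR. VCR lowered NGRN in both cell types, with -0.61 in NC and -1.82 in PTPN21 cells (limma adjusted p = 0.00391 and 2.24e-06). The interaction was -1.22 (standard error 0.184, limma adjusted p = 0.0264), passing in 6 of 12 fits that left out 1 library. NGRN was 1 of the 7 genes of the 15 that passed with the replicate block (limma adjusted p = 0.0497).

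SLC2A1 had 6.46, 6.53 and 6.51 FPKM in NC+DMSO, 5.94, 9.54 and 8.38 in PTPN21+DMSO, 9.76, 9.99 and 9.58 in NC+VCR and 3.82, 2.69 and 2.95 in PTPN21+VCR. The DMSO groups overlapped, and the PTPN21+VCR libraries were below all others. SLC2A1 fell with PTPN21 in VCR (-1.38, limma adjusted p = 0.00596). The interaction was -1.62 (standard error 0.270, limma adjusted p = 0.0484), passing in 1 of 12 fits that left out 1 library.

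In a list of cytochrome c oxidase subunits and assembly factors, chosen after COX4I1 and COA6 had been seen, these 2 were the only members of 27 tested that passed. The median interaction of the list was 0.01, against 0.17 for all genes, and COX8A and COX5B, other subunits of the enzyme, had 1.00 and 0.87 (limma adjusted p = 0.0942 and 0.138). None of the 13 mitochondrially encoded mRNAs passed, with a median of 0.23 and with 0.76 for MT-CO3, a core subunit of the oxidase (limma adjusted p = 0.0915). An unadjusted p under 0.05 was reached by 7 of them (53.8%), 6 more positive and 1 more negative, against 14.0% of all genes. They were not tested as a set. Of 16 ATP synthase genes, also listed after seeing the data, none passed, and the values ran from -1.24 for ATP5PF to 0.90. Of 19 genes of glucose transport and glycolysis, again listed afterwards, SLC2A1 passed, while PFKM, a phosphofructokinase, had 1.12 (limma adjusted p = 0.169).

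RPL22 encodes a protein of the large ribosomal subunit and was the most abundant of the 15 genes. Its FPKM was 4448, 8055 and 5189 in NC+DMSO, 13275, 10701 and 10964 in PTPN21+DMSO, 19095, 14922 and 14442 in NC+VCR and 6064, 5589 and 10441 in PTPN21+VCR. RPL22 rose with PTPN21 in DMSO (1.02, limma adjusted p = 0.0366) and fell with PTPN21 in VCR (-1.18, limma adjusted p = 0.0383). The interaction was -2.20 (standard error 0.350, limma adjusted p = 0.0367), passing in 2 of 12 fits that left out 1 library. Its paralog RPL22L1 had -0.50 (limma adjusted p = 0.636).

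HSP90AA1 encodes the stress-inducible form of the chaperone HSP90. Its FPKM was 1855, 2136 and 1839 in NC+DMSO, 1912, 1876 and 1996 in PTPN21+DMSO, 2409, 2654 and 2383 in NC+VCR and 1460, 1510 and 1467 in PTPN21+VCR. The DMSO groups overlapped, NC+VCR was above them and PTPN21+VCR below. VCR raised HSP90AA1 in NC cells (0.35, limma adjusted p = 0.00835) and lowered it in PTPN21 cells (-0.38, limma adjusted p = 0.00677). The interaction of -0.74 (standard error 0.124, limma adjusted p = 0.0484) was the smallest that passed, and it did so in 2 of 12 fits that left out 1 library. Of 23 genes for HSP90 and its co-chaperones, listed after seeing the data, no other passed. HSP90B1, the HSP90 of the endoplasmic reticulum, and HSPA5, the HSP70 of that compartment, had -0.65 and -0.45 (limma adjusted p = 0.0671 and 0.189). The list as a whole did not share this direction, with 12 members above 0, 11 below 0 and a median of 0.0, against 0.17 for all genes.

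UBALD2 had 30.9, 40.3 and 43.2 FPKM in NC+DMSO, 134, 128 and 104 in PTPN21+DMSO, 98.4, 57.4 and 83.5 in NC+VCR and 65.5, 66.4 and 69.9 in PTPN21+VCR. The DMSO groups were apart and the VCR groups overlapped. UBALD2 rose with PTPN21 in DMSO (1.66, limma adjusted p = 0.00191), and the difference in VCR was -0.21 (limma adjusted p = 0.631). The interaction was -1.86 (standard error 0.269, limma adjusted p = 0.0218), passing in 6 of 12 fits that left out 1 library.

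**Figure D3:**
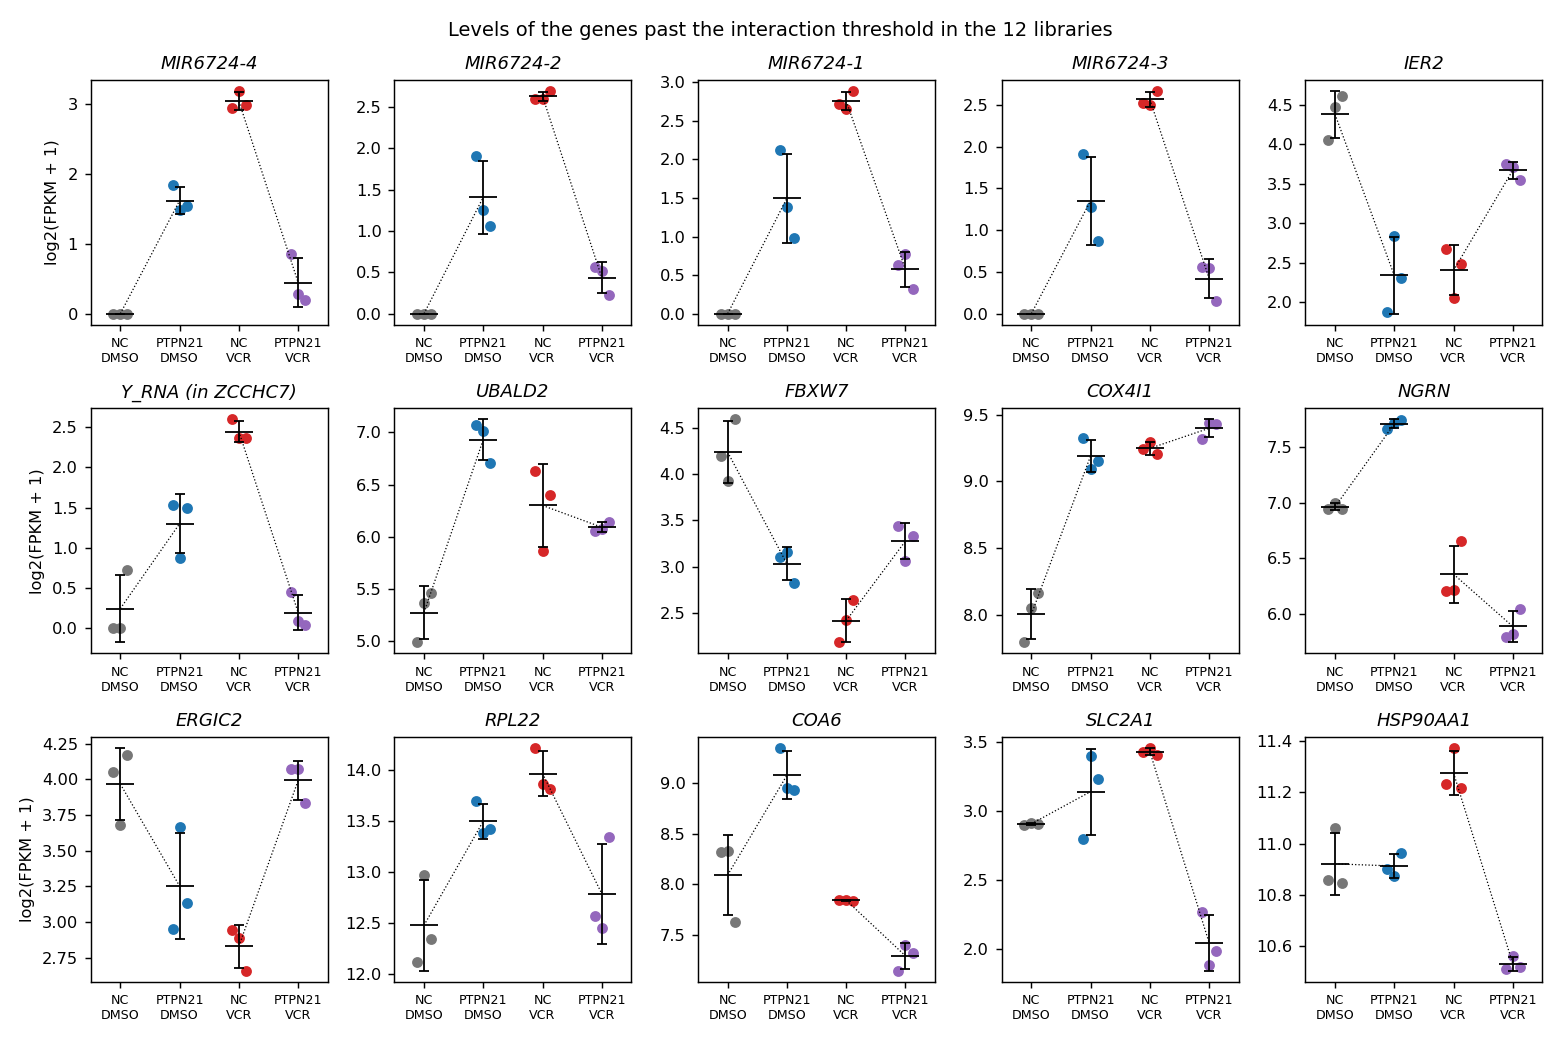
Level of each of the 15 genes past the interaction threshold, as log2(FPKM + 1), in each library (points, 3 per group), with the group mean (bar), its SD (whiskers) and dotted lines from NC to PTPN21 within DMSO and within VCR. The dotted lines slope in opposite directions for 13 genes, down and then up for IER2, FBXW7 and ERGIC2.

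The 15 genes with the next smallest p did not pass, with limma adjusted p from 0.0541 to 0.0671, and 8 of them had a more positive effect under VCR. SLC2A1 and HSP90AA1 were just inside the threshold and FAM207A, with -2.16, just outside it. CENPA, the histone variant that marks centromeres, had 3.79, 8.62 and 17.1 FPKM in NC+DMSO, 46.0, 47.2 and 62.4 in PTPN21+DMSO, 48.3, 64.8 and 69.3 in NC+VCR and 23.1, 55.6 and 35.8 in PTPN21+VCR. The NC+DMSO libraries were the lowest, and the interaction was -3.20 (limma adjusted p = 0.0562). MINPP1, an inositol polyphosphate phosphatase, had 2.70 (limma adjusted p = 0.0562), with 32.5 to 44.0 FPKM in NC+DMSO, 9.87 to 10.8 in PTPN21+DMSO, 4.11 to 16.4 in NC+VCR and 14.8 to 16.5 in PTPN21+VCR.

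AL137782.1, a long noncoding transcript, was listed at 0 in all 3 NC+VCR libraries and at 9.14, 4.62 and 9.57 FPKM in PTPN21+VCR. In DMSO it had 4.87, 3.53 and 3.44 FPKM in NC and 11.8, 7.62 and 8.84 in PTPN21 cells, and the interaction was 2.01 (limma adjusted p = 0.0659). ATP5PF, a subunit of ATP synthase, had -1.24, RBM8A, a core protein of the exon junction complex, had -1.09, and CCDC61 had -2.39. POP4, a subunit of RNase P, had 1.05, SEH1L, a nuclear pore protein, had 1.46, ABO, the blood group glycosyltransferase, had 1.69, ZBED5 had 1.93 and FAM157A had 1.75. The pseudogenes RPL24P8, RPS23P8 and EEF1A1P6 had -1.39, -1.13 and 0.66, and they can share reads with their near-identical parent genes.

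The 20 tested genes of the study's apoptosis panel and protein assays had a median interaction of -0.04, and none passed. An unadjusted p under 0.05 was reached by 4 of 20, against 14.0% of all genes. CDK1, the kinase that drives entry into mitosis, had 72.2, 67.9 and 64.8 FPKM in NC+DMSO, 61.6, 67.7 and 59.3 in PTPN21+DMSO, 48.0, 54.9 and 48.1 in NC+VCR and 69.5, 68.5 and 64.1 in PTPN21+VCR. The NC+VCR libraries were the lowest, and the interaction of 0.53 did not pass (limma adjusted p = 0.190).

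GADD45A, a stress-induced gene of growth arrest, had 97.4, 102 and 131 FPKM in NC+DMSO, 75.7, 95.8 and 93.2 in PTPN21+DMSO, 90.3, 79.0 and 83.9 in NC+VCR and 57.5, 52.2 and 61.8 in PTPN21+VCR. Every PTPN21 library was below every NC library of its condition, with differences of -0.31 in DMSO and -0.55 in VCR that did not pass (limma adjusted p = 0.186 and 0.067). The interaction was -0.24 (standard error 0.198, 95% interval -0.67 to 0.19, limma adjusted p = 0.591), so a PTPN21 effect that depended on the drug was not detected. TNFRSF1A, a death receptor, had -0.67 (limma adjusted p = 0.314). BAX, which permeabilizes mitochondria, had 0.32, CCNB1, the mitotic cyclin, -0.18, and PARP1, a DNA repair enzyme, 0.24, each with an unadjusted p above 0.05.

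ATF4, the transcription factor of the integrated stress response, had levels of 2 kinds. Its FPKM was 26.3, 302 and 246 in NC+DMSO, 29.8, 32.7 and 330 in PTPN21+DMSO, 314, 312 and 336 in NC+VCR and 26.0, 26.5 and 29.1 in PTPN21+VCR. Each VCR group was uniform, while both DMSO groups held libraries of either kind. The interaction of -2.65 had a standard error of 1.29 and did not pass (limma adjusted p = 0.376). Among 25 tested genes of ATF4 targets and the amino acid response, none passed, with a median of 0.01. PPP1R15A and SLC7A5, both known ATF4 targets, had -0.64 and 1.12 (limma adjusted p = 0.163 and 0.246).

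Outside the called genes, the lists of the drug's and the protein's known pathways gave no member past the threshold. None of 32 mitosis and spindle checkpoint genes passed, with a median of 0.28 against 0.17 for all genes. An unadjusted p under 0.05 was reached by 9 of them (28.1%), against 14.0% of all genes. NEK2 and CDC25C, which promote centrosome separation and mitotic entry, had 0.64 and 1.10 (limma adjusted p = 0.169 and 0.176). None of 17 tubulin genes and related genes passed, with -2.16 for TUBB6 and 1.68 for TUBD1 (limma adjusted p = 0.169 and 0.176). None passed among 15 BCL2 family genes, 15 caspase, apoptosome and IAP genes, 11 genes of GADD45, JNK and p38 and 31 genes of G1/S and replication. The members with the smallest p in these lists had 0.67 for BCL2L13, -0.72 for HTRA2, 0.89 for MAP3K7 and 0.70 for POLA1. Nor did any of 11 interferon-stimulated genes, 11 genes of the TAL1 circuit, 6 T lineage genes or 2 FERM-domain phosphatases pass.

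In 3 further lists that held a called gene, no other member passed. Of 19 immediate early and AP-1 genes IER2 alone passed, and EGR1 and DUSP1, which are also induced rapidly, had 0.77 and 0.62 (limma adjusted p = 0.311 and 0.396). Of 20 genes for the FBXW7 ligase and its substrates FBXW7 alone passed, while AURKA, a mitotic kinase, had 0.98 and CDC34, a ubiquitin-conjugating enzyme, had -0.95 (limma adjusted p = 0.218 and 0.138). Of 31 genes of transport from the endoplasmic reticulum to the Golgi ERGIC2 alone passed, and COPB1, a coat protein, had 0.68 (limma adjusted p = 0.176). The medians of these 3 lists were 0.18, 0.32 and 0.22.

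**Figure D4:**
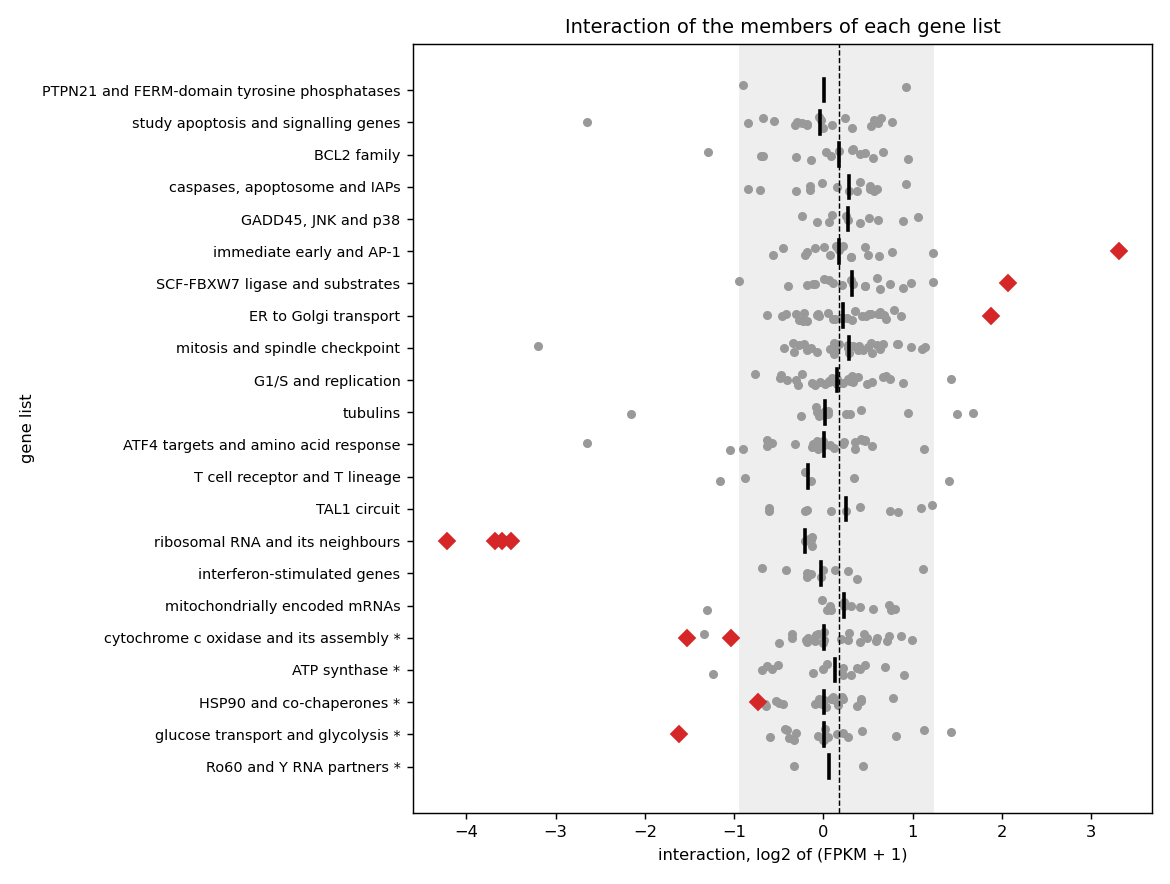
Interaction, as a difference in log2(FPKM + 1), of each tested member of the gene lists (grey points; red diamonds passed) with the list median (black bar); the dashed line is the median of all genes, 0.17, grey shading holds 95% of all genes (-0.94 to 1.23), and lists with an asterisk were chosen after seeing the data. IER2 (3.31), FBXW7 (2.07), ERGIC2 (1.88) and SLC2A1 (-1.62) lie beyond the other members of their lists, while HSP90AA1 (-0.74) and COX4I1 (-1.04) lie near other members that did not pass.

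**Figure D5:**
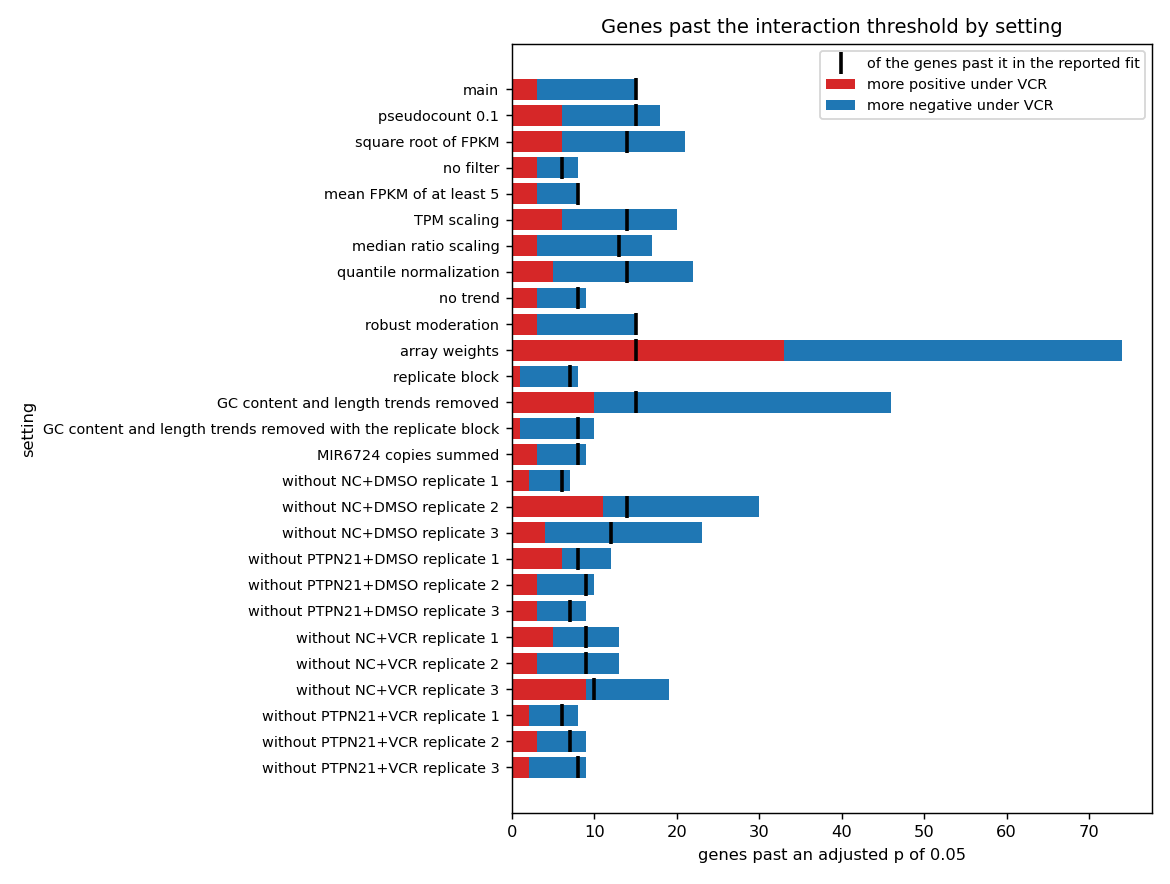
Number of genes past an adjusted p of 0.05 (x axis) in the reported fit (top bar) and in 26 alternatives, split by direction, with a black tick for how many of the 15 genes passed. The counts run from 7 without NC+DMSO replicate 1 to 74 with array weights.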

How the data were processed

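RNA of 12 libraries was measured, 3 in each of 4 groups taken from the sample titles. The authors deposited FPKM values for 60671 genes with human Ensembl identifiers, of which 58453 (96.3%) are in GENCODE release 29 (GRCh38), used here for positions, length and GC content. Per the labels, the submitters' processing notes name fastp, Bowtie2 and the mouse build mm10, which differs from the human identifiers; the counting program and any filter are not given in the sources used here. A pseudocount of 1 was added to the deposited FPKM before taking log2. Genes at or above a mean FPKM of 1 were fitted with limma 3.58.1 in R 4.3.3 (group means, intensity trend, two-sided, Benjamini-Hochberg). The median standard error of an interaction was 0.353, which sets its precision. The method was tested on simulated data with 200 changed genes among 11591. It recovered 16% of interactions of size 1 and 63% of those of size 2 on the log2 scale, and 2.47% of its calls were false. A gene that did not pass can therefore still have an interaction of such a size. The simulated noise was normal, independent between genes and of equal spread in all groups. The real data hold copies that share reads and groups at 0, so the share of false calls may differ there. Python 3.11.15 served for tables and plots.

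The genes named are all genes past the threshold, those with the next smallest p up to 30 in all, genes the study measured, and up to 4 members of each list by smallest p. Some genes and a list under this rule are not reported here. The gene lists and this choice were made with earlier results of these data known. Libraries with the same replicate number did not deviate together: over 18 pairs the correlation of deviations was -0.145 to 0.0583. The alternatives were other pseudocounts, scalings, filters and moderation, GC content and length trends removed, a replicate block and leaving out each library.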

Additional observations from a re-analysis of the deposited data

Results flagged for a closer look

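The 15 genes past the threshold are listed here because a test of the difference itself, the interaction term, found their PTPN21 effect to differ between DMSO and VCR (limma, adjusted p under 0.05 over 11591 genes). The interactions were -4.22 for MIR6724-4, -3.61 for MIR6724-2, -3.68 for MIR6724-1, -3.50 for MIR6724-3, -3.31 for the Y RNA gene in ZCCHC7, 3.31 for IER2, 2.07 for FBXW7 and 1.88 for ERGIC2. They were -1.86 for UBALD2, -1.04 for COX4I1, -1.22 for NGRN, -2.20 for RPL22, -1.52 for COA6, -1.62 for SLC2A1 and -0.74 for HSP90AA1. The MIR6724 copies and the Y RNA gene are 92 to 101 bases long and rest on at most 25.1 read equivalents per library, and the copies share reads. Groups of 3 libraries are too small for the test of single outlying libraries.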

How the results depend on the processing

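The 15 genes kept the sign of their interaction in every alternative that tested them, and 6 of them (the MIR6724 copies, IER2 and the Y RNA gene) also passed in each. A mean FPKM of at least 5 removed the MIR6724 copies and the Y RNA gene from the test. The number of genes past the threshold, 15 (3 more positive, 12 more negative), was 8 (3 and 5) at a mean FPKM of at least 5, 8 (3 and 5) with no filter, 9 (3 and 6) without the trend, 74 (33 and 41) with array weights, 46 (10 and 36) with GC content and length trends removed and 9 (3 and 6) with the MIR6724 copies summed, where COA6, SLC2A1 and HSP90AA1 also lost the call (limma adjusted p = 0.0557, 0.0605 and 0.0605). The number more positive was 6 with a pseudocount of 0.1, 6 on the square root of FPKM, 6 with TPM scaling and 5 with quantile normalization. Leaving out 1 library gave 7 to 30 genes, 2 to 11 more positive and 5 to 19 more negative. With the replicate block 8 genes passed, 1 more positive and 7 more negative, and 7 of these were among the 15; with GC content and length trends removed as well, 10 passed, 1 and 9. No pair of same-numbered libraries reached a correlation of deviations of 0.1, so the block rests on the numbers alone. Of the 13 genes with opposite PTPN21 effects, 8 remained to be counted at a mean FPKM of at least 5. The cause of the other changes in number was not tested. Among the 15, SLC2A1 passed in 9 of 26 alternatives, HSP90AA1 in 8, COA6 in 10, ERGIC2 and RPL22 in 12, COX4I1 in 14, NGRN and UBALD2 in 17 and FBXW7 in 19, with a highest adjusted p of 0.194 (HSP90AA1). Tests on counts were not run, as FPKM is no count. The MIR6724 copies and the Y RNA gene rest on few reads, and each group holds 3 libraries.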

Other observations

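Of the markers of other cell types, 1 of 12 B lineage, 4 of 10 myeloid and 5 of 10 epithelial and packaging cell genes had a mean FPKM of at least 1 in the 12 libraries. In the last of these lists, median levels were 535 FPKM for KRT8, 80.6 for EPCAM and 673 for VIM. In the same list CDH2 and YAP1 were listed at 0 in all 12 libraries, and CDH1, CAV1 and GJA1 had medians of at most 0.0876. None of the markers of the 3 lists passed for the interaction.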
